A study of Mus musculus with 9 samples.

Results

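Collagens are secreted or membrane-anchored proteins built from 3 chains wound into a triple helix, and each chain is encoded by a gene of its own. Fibrillar collagens form the cables of connective tissue, type IV collagens form the sheet-like network of basement membranes, and smaller classes decorate fibrils, link them to other matrix or span the plasma membrane. In the brain, the basal lamina that joins the astrocyte endfoot to the vessel wall holds type IV collagen, and endothelial cells, mural cells and fibroblasts of the vessel wall are well-known sources of collagen, whereas brain parenchyma holds little fibrillar collagen.

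The collagen chains were taken as every protein-coding gene whose symbol reads Col, a number, a and a number. All 44 such genes of the annotation were found among the 22092 genes measured. RNA attached to GFP-tagged ribosomes was compared between whole astrocyte TRAP (3 libraries, each from 1 whole brain, choroid plexus removed before extraction) and endfeet TRAP (6 libraries, each from brain vessels purified from 8 mice and pooled). TRAP is the immunoprecipitation of ribosomes that carry a tagged protein together with the mRNAs bound to them. Both groups came from mice 2 months of age of the Aldh1L1 JD130 strain, genotype tg:Aldh1L1-L10aGFP, and the labels name no treatment. In these mice, the promoter of the astrocyte gene Aldh1l1 drives the ribosomal protein L10a fused to eGFP, so the tag marks cells in which this promoter was active, and libraries of untagged ribosomes were not analysed here. The sex of the mice was not given in the sources used here.

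Gene totals lay between 35984144 and 43521208 counts in whole astrocyte libraries and between 2319495 and 13450588 in endfeet libraries. A level is given in CPM, the counts per 1000000 counts of the library after TMM normalisation, and a count of 0 is read against a floor of 3 counts, which was 0.0658 to 0.0811 CPM in whole astrocyte libraries and 0.197 to 1.37 CPM in endfeet libraries. These floors cover counting error only. Endfeet library 6 was the shallowest, and 8 of the 40 chains tested were at 0 in it. The numbers in the names of the files put endfeet libraries 1, 2 and 3 in a series, here series A, and endfeet libraries 4, 5 and 6 with all whole astrocyte libraries in another, series B; what these numbers stand for was not given.

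The collagen chains were far more abundant in endfeet TRAP. Their counts made up 0.00396%, 0.00506% and 0.00551% of gene counts in the whole astrocyte libraries and from 0.117% to 0.252% in the endfeet libraries, and the summed level was 38.5 to 52.7 CPM in whole astrocyte TRAP and 1219.5 to 3073 CPM in endfeet TRAP. Of the 40 chains with enough counts to be tested, 30 were higher in endfeet TRAP and 0 were lower (edgeR's quasi-likelihood test, Benjamini-Hochberg adjusted p at or under 0.05 over 14427 genes). No estimate was below 0, so 0 chains were lower at an unadjusted p under 0.05 either. Over all genes tested, 20.7% were called higher and 13.9% lower. The filter on low counts bears on the 0 lower, on the 30 higher and on the median below. Chains scarce in whole astrocyte TRAP could pass it through their endfeet libraries. Col2a1 and Col6a4, with counts in whole astrocyte TRAP and 0 in all endfeet libraries, did not pass it. Without that filter, 1 chain (Col6a4) was called lower (12.4% of all genes). The median log2 fold change of the tested chains was 5.56, with a range from 0.57 to 9.69, against 0.10 over all genes tested. With at least 10 counts in every library, the 13 chains tested were all higher (27.7% of all genes), with a median of 4.40. All 6 endfeet libraries lay above all 3 whole astrocyte libraries for 23 of the 40 chains, against 18.9% of all genes tested, and below them for 0 of the 40, against 23.8%. DESeq2's Wald test called 35 of the 39 chains to which it gave an adjusted p higher (25.6% of all genes with one), and limma voom, fitted with group-wise weights, called 34 of 40 higher (27.2% of all genes); both also called 0 lower, and both lists held all 30 chains of the edgeR test. In series B alone, 27 of 33 tested chains were higher (19.5% of all genes), 24 of them among the 30, and with the series as a covariate 27 of 40 were higher (18.6% of all genes), 26 of them among the 30. The libraries are separate brains or separate pools, so the p-values refer to the spread between brains and between pools. edgeR's fit took 1 dispersion, a measure of spread, per gene for both groups. The common dispersion was 0.0142 for whole astrocyte TRAP and 0.725 for endfeet TRAP, so its p-values rest on a blend of unequal spreads. In such bulk samples, fewer cells of a type and less RNA per cell cannot be told apart.

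**Figure D1:**
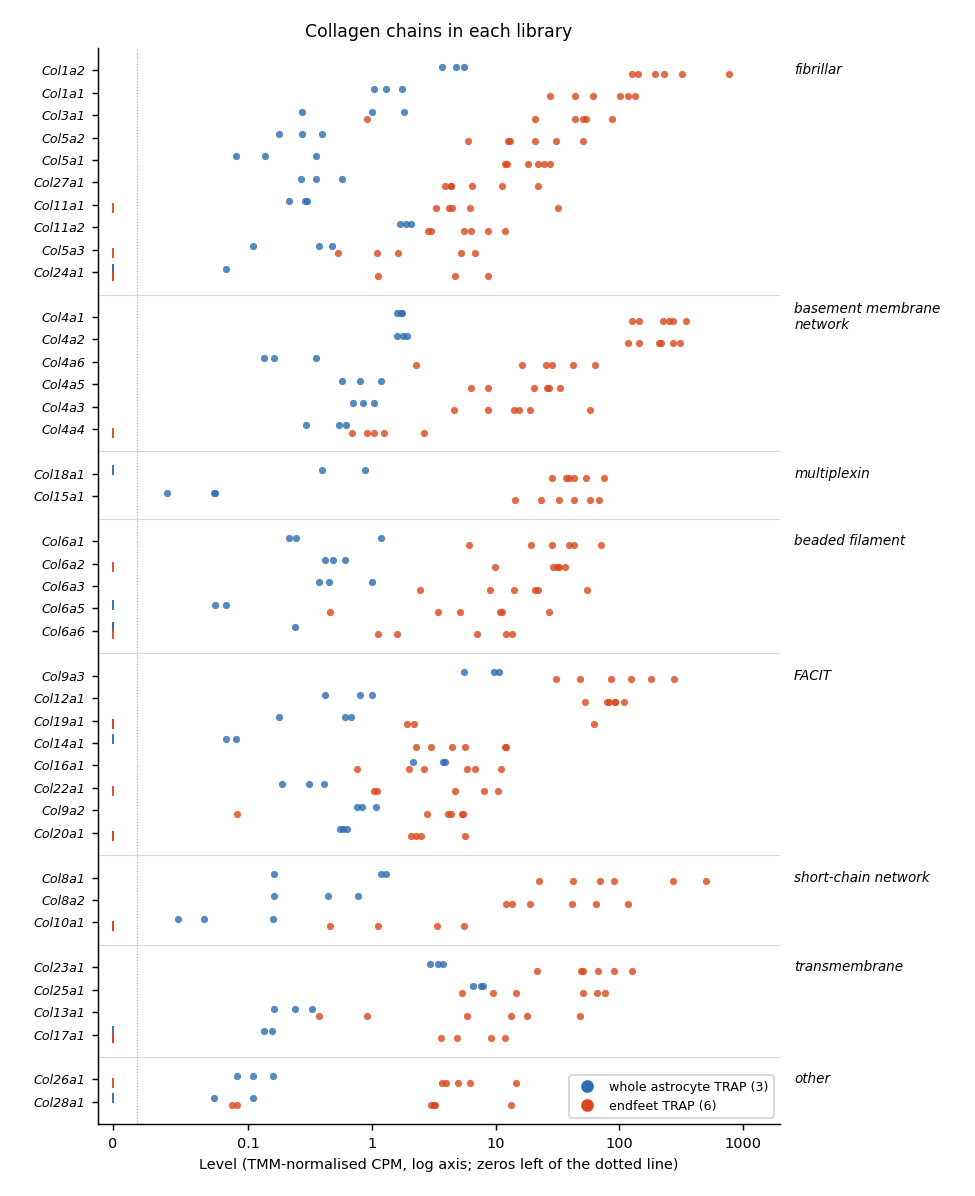
Level of each of the 40 tested collagen chains in each library, as TMM-normalised CPM on a log axis, grouped by class and ordered within a class by the mean of the endfeet libraries; each point is 1 library, and a tick left of the dotted line stands for the libraries at 0. For Col4a1, Col4a2, Col1a1, Col1a2, Col12a1 and Col15a1 every endfeet library lay to the right of every whole astrocyte library, while for Col16a1 the groups overlapped.

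Markers of other cell types, none of them a collagen, moved with the groups as well. The summed level of 11 endothelial markers was 6.52 to 8.71 CPM in whole astrocyte TRAP and 3244 to 5230 CPM in endfeet TRAP, and that of 12 mural markers was 41.9 to 47.6 CPM and 4107 to 8615 CPM. All 11 endothelial and all 12 mural markers had every endfeet library above every whole astrocyte library; among them, Ly6c1 was at 0 in all whole astrocyte libraries. Of 13 fibroblast markers 11 did so, with a sum of 136 to 220.2 CPM against 3372 to 7189 CPM; the fibroblast proteoglycans were at 7.46, 11.01 and 12.2 CPM in whole astrocyte TRAP for Dcn and at 1.43, 1.64 and 1.36 CPM for Lum. The 11 astrocyte markers summed to 24004 to 28230 CPM in whole astrocyte TRAP and 10086 to 30622 CPM in endfeet TRAP, 1 of them above and 5 below. Microglia and macrophage markers were also higher in endfeet TRAP (18.2 to 22.9 CPM against 214 to 403 CPM, 6 of 9 above), whereas the sums of 7 oligodendrocyte markers (635 to 648 CPM against 239.9 to 567 CPM, 2 of 7 below in every endfeet library) and of 7 neuron markers (3272 to 3828 CPM against 919.9 to 1938 CPM, 3 of 7 below) were higher in whole astrocyte TRAP. Over all genes tested, 18.9% had every endfeet library above every whole astrocyte library, and 23.8% had every one below. The 2 of 7 oligodendrocyte markers are near that second share. The part of these cells in the collagen levels was not tested.

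**Figure D2:**
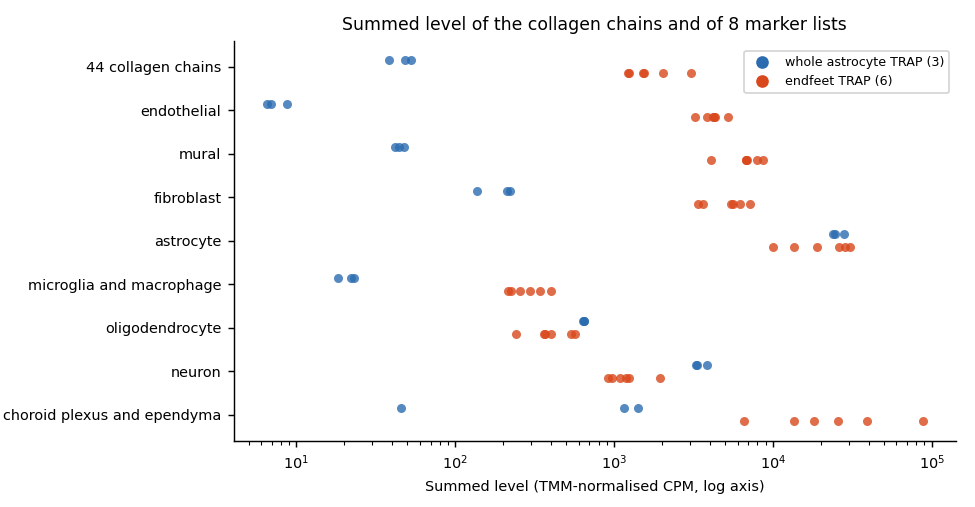
Summed level of the 44 collagen chains and of the 8 lists of cell type markers in each library, as TMM-normalised CPM on a log axis; each point is 1 library. The collagen sum, like the endothelial, mural and fibroblast sums, was higher in all 6 endfeet libraries than in all 3 whole astrocyte libraries, while the astrocyte sums overlapped.

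In the basement membrane class, 5 of 6 chains were higher (20.7% of all genes), with a median log2 fold change of 5.73. Col4a1 and Col4a2 had the smallest standard errors of the 40 tested chains. Col4a1 and Col4a2 encode the chains of the type IV collagen found in nearly all basement membranes, that of the cerebral vessels included. Col4a1 (chr8:11198423-11312826, minus strand of mm10) was at 1.59, 1.75 and 1.71 CPM in the whole astrocyte libraries and at 345, 274, 227, 127, 145 and 253 CPM in endfeet libraries 1 to 6. The lowest endfeet library was far above the highest whole astrocyte library, and the change was significant (log2 fold change 7.08, SE 0.48, adjusted p = 3.71e-07). Col4a2 (chr8:11312805-11449287, plus strand) was at 1.78, 1.59 and 1.93 CPM and at 118, 313, 271, 218, 143 and 212 CPM, again without overlap (log2 fold change 6.90, SE 0.47, adjusted p = 3.92e-07). Both calls held in every fit that left out 1 library, with log2 fold changes of 6.89 to 7.09 for Col4a1 and 6.77 to 7.01 for Col4a2.

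The genes Col4a1 and Col4a2 lie head to head on chromosome 8, with annotated start sites at 11312826 and 11312805, and their chosen transcripts share 22 exon bases on opposite strands. The promoter windows of both genes are shown. Those of Col1a2, the fibrillar chain most abundant in endfeet TRAP, and of Col8a1, the most abundant short-chain collagen, are given beside them. Sequences are from RefSeq (GRCm38.p6), from 250 bases before to 50 after the start site, 5′ to 3′ on the strand of the gene: chr8:11312777-11313076 minus for Col4a1, chr8:11312555-11312854 plus for Col4a2, chr6:4505368-4505667 plus for Col1a2 and chr16:57754688-57754987 minus for Col8a1. Capitals mark matches to CCAAT (the CCAAT box), GGGCGG (the GC box) or TATAAA (the TATA box) on either strand.
Col4a1: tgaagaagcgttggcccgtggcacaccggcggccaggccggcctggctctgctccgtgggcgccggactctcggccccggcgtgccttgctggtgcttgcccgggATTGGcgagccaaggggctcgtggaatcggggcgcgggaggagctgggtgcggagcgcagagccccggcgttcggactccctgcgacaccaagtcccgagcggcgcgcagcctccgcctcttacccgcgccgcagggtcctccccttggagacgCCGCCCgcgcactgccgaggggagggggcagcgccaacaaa
Col4a2: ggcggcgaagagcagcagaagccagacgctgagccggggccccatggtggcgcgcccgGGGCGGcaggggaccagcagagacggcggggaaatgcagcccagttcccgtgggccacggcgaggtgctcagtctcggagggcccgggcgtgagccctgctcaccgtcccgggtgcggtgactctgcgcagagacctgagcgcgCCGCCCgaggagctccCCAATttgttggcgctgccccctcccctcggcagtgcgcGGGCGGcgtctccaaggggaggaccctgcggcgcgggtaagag
Col1a2: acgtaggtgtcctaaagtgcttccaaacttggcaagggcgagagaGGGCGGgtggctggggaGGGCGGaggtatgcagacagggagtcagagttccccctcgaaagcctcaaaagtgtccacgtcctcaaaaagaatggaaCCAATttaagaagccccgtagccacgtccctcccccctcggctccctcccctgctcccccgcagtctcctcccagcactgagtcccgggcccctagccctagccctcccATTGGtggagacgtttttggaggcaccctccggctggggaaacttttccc
Col8a1: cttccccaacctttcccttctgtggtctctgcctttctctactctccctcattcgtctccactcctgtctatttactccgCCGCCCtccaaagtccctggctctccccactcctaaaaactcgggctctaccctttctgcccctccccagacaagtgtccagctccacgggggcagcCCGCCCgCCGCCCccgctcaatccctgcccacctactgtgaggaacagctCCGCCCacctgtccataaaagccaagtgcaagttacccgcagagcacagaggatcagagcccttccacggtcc
The windows of Col4a1 and Col4a2 held 1 CCAAT each and 1 and 3 GGGCGG. These 2 windows overlap, and the GGGCGG of Col4a1 is the last one of Col4a2 read on the other strand. That 1 site is thus counted in both windows, also in the share below. The window of Col1a2 held 2 CCAAT and 2 GGGCGG, and that of Col8a1 held 4 GGGCGG. None of these windows held TATAAA. The Col1a2 window rests on a start site at 4505618, whereas the gene is annotated from 4504814, so motifs outside that window were not seen. Windows were found for 35 of the 44 chains, 38 in all. GGGCGG occurred in 60.5% of the 38 and in 35.7% of all 32851 promoter windows of the same length, CCAAT in 34.2% and 37.4%, and TATAAA in 13.2% and 13.6%. These shares are a description of letters, and neither binding nor transcription was measured.

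The other type IV chains were less abundant. Col4a3, Col4a4 and Col4a5 make up the network of the kidney glomerulus, among other sites, and Col4a6 pairs with Col4a5 in basement membranes of smooth muscle and epithelia. Col4a6 was at 0.162, 0.132 and 0.351 CPM in whole astrocyte TRAP and 2.28 to 63.6 CPM, median 27.2 CPM, in endfeet TRAP, without overlap (log2 fold change 7.07, SE 1.11, adjusted p = 0.000324). Col4a5 was at 0.568, 0.794 and 1.19 CPM against 6.28 to 33.3 CPM, median 23.2 CPM, also without overlap (log2 fold change 4.56, SE 0.85, adjusted p = 0.00113). Col4a3 was at 1.03, 0.847 and 0.702 CPM against 57.97, 18.96, 8.74, 14.01, 15.3 and 4.57 CPM (log2 fold change 4.53, SE 0.96, adjusted p = 0.00278). The highest Col4a3 value, in endfeet library 1, was about 3 times the next one, and without that library the log2 fold change was 3.84 with the call unchanged. Col4a4, whose start site lies 71 bases from that of Col4a3 on the opposite strand, was at a mean of 0.482 ± 0.169 CPM (SD, n = 3) against 1.09 ± 0.868 CPM (SD, n = 6), the groups overlapped, and no change was called (log2 fold change 1.15, adjusted p = 0.483). Values for this pair of neighbours are side by side here, and the difference between their changes was not tested. Col4a6 and Col4a5 also lie head to head, with 1308 bases between their start sites. The difference between their log2 fold changes of 7.07 and 4.56 was not tested either.

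The multiplexins are proteoglycan collagens tied to basement membranes, and endostatin is cut from the end of the Col18a1 chain. Both tested members were higher (20.7% of all genes), with a median log2 fold change of 8.22. Col15a1 had the largest log2 fold change of the 40 tested chains: its counts were 2, 2 and 1 in the whole astrocyte libraries and 76, 203, 1042, 536, 788 and 71 in the endfeet libraries, that is 0.0541, 0.0529 and 0.0219 CPM against 14.3, 23.3, 68.5, 43.1, 58.1 and 32.4 CPM. Its whole astrocyte levels were all under the floor of 3 counts, so the size of the change rests on very few counts (log2 fold change 9.69, SE 0.92, adjusted p = 5.41e-06). Col18a1 was at 0, 0.873 and 0.395 CPM against 75.8, 54.01, 37.4, 39.1, 43.1 and 28.8 CPM (log2 fold change 6.76, SE 1.06, adjusted p = 0.000322). Endfeet libraries were all above whole astrocyte libraries for both genes, and both calls held in every fit that gave them a value.

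The fibrillar class had 10 tested members, of which 7 were higher (20.7% of all genes), with a class median log2 fold change of 5.64. Col1a1 and Col1a2 encode the chains of type I collagen, the main collagen of connective tissue, and Col3a1 encodes that of type III, which is found with it in vessel walls. Col1a2 (chr6:4504814-4541544) was at 3.65, 4.82 and 5.55 CPM in whole astrocyte TRAP and 766, 231, 141, 196, 320.3 and 126 CPM in endfeet TRAP (log2 fold change 5.99, SE 0.70, adjusted p = 3.01e-05). Endfeet library 1 stood above the other 5, and without it the log2 fold change was 5.44. Col1a1 (chr11:94936224-94953042) was at 1.297, 1.03 and 1.76 CPM against 61.5, 135, 119, 44.3, 101 and 27.4 CPM, without overlap (log2 fold change 5.89, SE 0.67, adjusted p = 2.66e-05). Col3a1 was at 0.2703, 1.01 and 1.80 CPM against 43.5, 53.7, 50.7, 20.8, 88.02 and 0.914 CPM; endfeet library 6 fell among the whole astrocyte libraries and the other 5 were above them (log2 fold change 5.38, SE 1.16, adjusted p = 0.00306).

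The type V chains, minor partners that take part in starting type I fibrils, were lower in level. Col5a1 was at 0.135, 0.0794 and 0.351 CPM against 11.9 to 27.6 CPM, median 20.1 CPM (log2 fold change 6.63, SE 0.90, adjusted p = 0.000107), and Col5a2 was at 0.2703, 0.397 and 0.176 CPM against 5.94 to 51.02 CPM, median 16.95 CPM (log2 fold change 6.30, SE 0.98, adjusted p = 0.000297), both without overlap. Col27a1, a fibrillar collagen of cartilage, was at 0.351, 0.265 and 0.571 CPM against 3.86 to 21.9 CPM, median 5.38 CPM (log2 fold change 4.44, SE 1.05, adjusted p = 0.00535). Col11a1 was also higher, with 0 in endfeet library 6 and up to 32.1 CPM in endfeet library 1 (log2 fold change 4.95, adjusted p = 0.0206), but the call was lost when any 1 of the whole astrocyte libraries was left out, with adjusted p up to 0.0946. Col5a3, Col11a2 and Col24a1 were not called, with log2 fold changes of 2.94 for Col5a3 and 1.75 for Col11a2. Col11a2 had every endfeet library above every whole astrocyte library (1.89, 2.06 and 1.69 CPM against 2.83 to 11.8 CPM, median 5.94 CPM) with an adjusted p of 0.126, and Col24a1 was at 0 in 3 endfeet libraries and had 3 counts in all in whole astrocyte TRAP, a 104-fold ratio of CPM over the pooled libraries with a 95% exact counting interval of 34.9 to 510.4 (edgeR adjusted p = 0.0512). DESeq2 called all 3 of these chains higher. The interval for Col24a1 covers counting error only, not the spread between pools, and 107 of its 149 endfeet counts fell in library 4. Col2a1, the cartilage collagen, had 4, 2 and 4 counts in the whole astrocyte libraries and 0 in all endfeet libraries, where 4.77 counts in all would have fallen at its pooled whole astrocyte level; it did not pass the filter on low counts and was not tested.

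**Figure D3:**
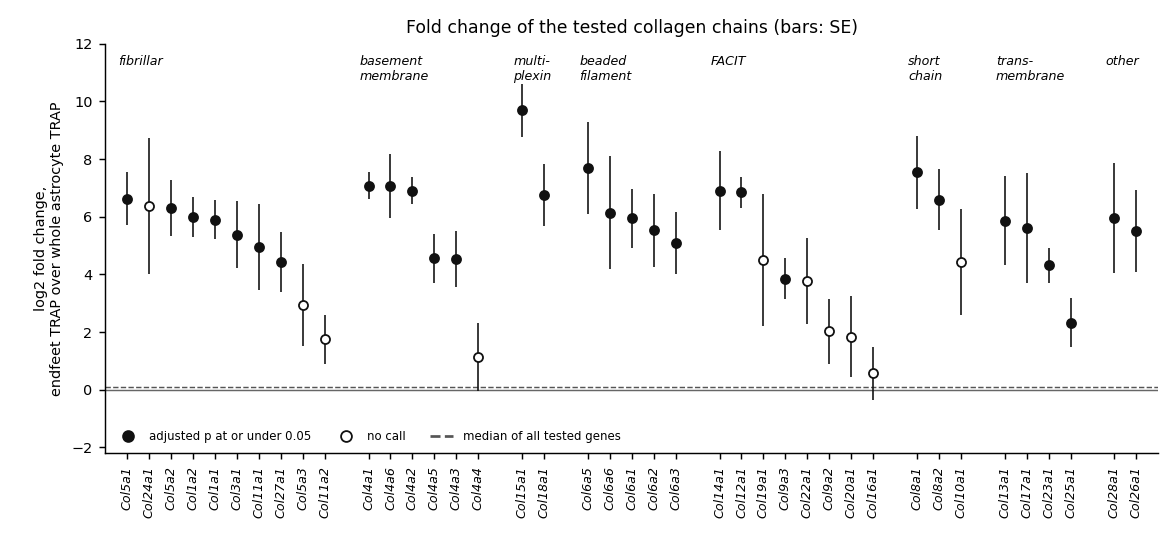
log2 fold change of endfeet TRAP over whole astrocyte TRAP for the 40 tested chains, by class, with bars of 1 SE from edgeR's fit; filled points have an adjusted p at or under 0.05 and open points have no call. All 40 estimates were above 0 and above the dashed line at 0.10, the median of all genes tested, and the FACIT class held 5 of the 10 chains without a call. Chains scarce in whole astrocyte TRAP could pass the filter on low counts through their endfeet libraries. Col2a1 and Col6a4, at 0 in all endfeet libraries, did not pass it and are not shown.

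Type VI collagen forms beaded microfilaments around cells, mural cells and fibroblasts among them. All 5 tested members of this class were higher (20.7% of all genes), with a median log2 fold change of 5.95. Col6a1 was at 0.243, 0.212 and 1.19 CPM against 6.04 to 71.1 CPM, median 33.8 CPM (log2 fold change 5.95, SE 1.03, adjusted p = 0.000644) and Col6a3 was at 1.0, 0.4499 and 0.373 CPM against 2.44 to 55.4 CPM, median 17.5 CPM (log2 fold change 5.08, SE 1.08, adjusted p = 0.0027), both without overlap. Col6a2 was at 0.487, 0.609 and 0.417 CPM against 31.5, 36.5, 29.4, 9.90, 32.7 and 0 CPM; it was at 0 in endfeet library 6, where the floor was 1.37 CPM, and above all whole astrocyte libraries in the other 5 (log2 fold change 5.52, SE 1.27, adjusted p = 0.00455). Col6a5, which the study lists in its endfeet transcriptome, was at 0.0541, 0 and 0.0658 CPM against 27.02, 3.45, 10.8, 5.15, 11.3 and 0.457 CPM. It was above every whole astrocyte library in all 6 endfeet libraries, but the counts behind the lowest endfeet values are few (log2 fold change 7.70, SE 1.59, adjusted p = 0.00226). The study's endfeet transcriptome is a microarray list of RNAs depleted from brain vessels of C57BL6 mice upon basal lamina digestion. It is thus another measure and another comparison than the one here. Besides Col6a5 and Col12a1, no collagen chain is named in that list. Col6a6 was at 0, 0.238 and 0 CPM against 1.13, 13.7, 1.58, 7.08, 12.1 and 0 CPM and was higher (log2 fold change 6.14, SE 1.95, adjusted p = 0.0267). All 9 of its whole astrocyte counts fell in library 2; without that library the log2 fold change was 9.70, and without library 1 or 3 the call was lost. Col6a4 ran the other way in its raw values, with 6, 8 and 9 counts in the whole astrocyte libraries and 0 in all endfeet libraries; its whole astrocyte levels were 0.162, 0.212 and 0.198 CPM, against a lowest endfeet floor of 0.197 CPM, and at their pooled level 11.0 counts would have fallen in the endfeet libraries together. It did not pass the filter on low counts, and without that filter it was the 1 chain called lower (12.4% of all genes were called lower).

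The fibril-associated collagens with interrupted triple helices (FACIT), which sit on the surface of fibrils, had the lowest share of calls. Of 8 tested members 3 were higher, against 20.7% of all genes, with a median log2 fold change of 3.81. The classes are small, and their shares of calls were not compared by a test. Col9a3, a chain of type IX collagen of cartilage, was the most abundant collagen message per length in whole astrocyte TRAP. It was at 5.595, 9.63 and 10.6 CPM in the whole astrocyte libraries and 277, 124, 85.4, 31.1, 48.5 and 182 CPM in the endfeet libraries, without overlap (log2 fold change 3.85, SE 0.71, adjusted p = 0.00102). Its chosen transcript shares 234 exon bases (7.68%) with Tcfl5 on the opposite strand, and reads from the 2 genes there cannot be told apart if counting ignored strand. Its partner chains were scarce: Col9a2 was at 0.757, 1.09 and 0.834 CPM against 0.0805 to 5.44 CPM, median 4.23 CPM, and was not called (adjusted p = 0.18), and Col9a1 was too low to be tested.

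Col12a1, a FACIT of tendon and dense connective tissue that is also in the study's microarray list, was among the most even chains across endfeet libraries. It was at 1.0, 0.794 and 0.417 CPM in whole astrocyte TRAP and 91.7, 83.3, 92.2, 79.8, 109.8 and 52.99 CPM in endfeet TRAP (log2 fold change 6.84, SE 0.54, adjusted p = 1.2e-06). These levels are those of Col12a1-201, a full-length coding transcript (chr9:79598991-79718831 is the gene, on the minus strand). The retained-intron transcript Col12a1-203, at the 5′ end of the gene (chr9:79712534-79718831), had 62, 63 and 78 counts in the whole astrocyte libraries and 0, 0, 7, 15, 0 and 4 in the endfeet libraries, means of 1.68 and 0.582 CPM. In CPM, endfeet library 6 lay above the whole astrocyte libraries and the other 5 below them, and this transcript was not tested. In whole astrocyte TRAP it held more counts than the coding one, which had 37, 30 and 19, whereas in endfeet TRAP the coding transcript had 489, 725, 1403, 992, 1490 and 116. Of the 189 transcripts of the 44 genes, 3 had more counts than the chosen one in whole astrocyte TRAP, and the others, of Col14a1 and Col16a1, differed from it by few counts. With counts summed over all transcripts of each gene, 29 chains were called higher (19.0% of all genes), 28 of them among the 30. Because the counts of overlapping transcripts repeat the same reads, the sum was not used as the level.

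Of the remaining FACITs, Col14a1 was at 0, 0.0794 and 0.0658 CPM against 2.28 to 12.2 CPM, median 5.03 CPM, and was higher (log2 fold change 6.90, SE 1.37, adjusted p = 0.00175). Col16a1 was at 2.14, 3.78 and 3.91 CPM against 0.7505, 2.64, 5.91, 11.03, 1.99 and 6.85 CPM; its endfeet libraries lay on both sides of the whole astrocyte libraries and its log2 fold change of 0.57 was the smallest of the 40 (adjusted p = 0.669). Nearly all its counts fell in Col16a1-207, a short transcript at the 3′ end of the gene with 78, 137 and 164 counts in whole astrocyte TRAP, so its level per length is not comparable with that of other chains. Col19a1 is represented by the non-coding transcript Col19a1-203, which was at 0.676, 0.609 and 0.176 CPM in whole astrocyte TRAP and at 62.5, 0, 1.91, 2.17, 0 and 0 CPM in endfeet libraries 1 to 6, so that 1 library set its mean, and which was not called (adjusted p = 0.147). Its coding transcripts ran the other way: Col19a1-201 had 0, 7 and 7 counts and Col19a1-202 had 2, 7 and 12 in the whole astrocyte libraries, and both were at 0 in all 6 endfeet libraries. The values of Col19a1 are therefore not a measure of its coding message. The chosen transcripts of Col6a4 (Col6a4-203) and Col16a1 (Col16a1-209) are not annotated as coding either; the coding Col6a4-201 was also at 0 in all endfeet libraries, and the coding Col16a1-201 differed from the chosen one by 1 count at most in any library. Col22a1 was at 0.405, 0.185 and 0.307 CPM against 0, 1.03, 4.73, 8.05, 1.11 and 10.5 CPM, with 1 endfeet library at 0 and the other 5 above the whole astrocyte libraries, and was not called (log2 fold change 3.78, adjusted p = 0.0653). Col20a1 was not called either, with a log2 fold change of 1.84.

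The short-chain collagens VIII form hexagonal networks beneath endothelia and in the Descemet membrane of the cornea. Col8a1 was at 0.162, 1.19 and 1.29 CPM in whole astrocyte TRAP and 502, 274, 69.6, 41.9, 91.5 and 22.4 CPM in endfeet TRAP (log2 fold change 7.55, SE 1.26, adjusted p = 0.000519). Col8a2 was at 0.162, 0.767 and 0.439 CPM against 118, 41.6, 18.99, 13.4, 12.2 and 64.9 CPM (log2 fold change 6.60, SE 1.07, adjusted p = 0.000405). Both were without overlap, yet both varied widely among endfeet libraries. Col10a1, the collagen of hypertrophic cartilage, was at 0.02703, 0.159 and 0.0439 CPM against 0 to 5.53 CPM, median 0.787 CPM, and was not called (adjusted p = 0.08).

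Several chains were lowest and highest in the same libraries as markers of choroid plexus. The 6 markers of choroid plexus and ependyma summed to 45.8, 1412 and 1150.1 CPM in whole astrocyte libraries 1, 2 and 3, and to 87751, 39023, 25863, 13582, 6597 and 18096 CPM in endfeet libraries 1 to 6. Most of the sum was Ttr, the transthyretin made by the choroid plexus epithelium, at 28.4, 1382 and 1125 CPM and 86764, 38309.9, 25500.2, 13189.6, 6395 and 17723 CPM. In whole astrocyte library 1, where that sum was the lowest of all 9 libraries, Col8a1, Col8a2, Col18a1 and Col9a3 were all at their lowest, and in endfeet library 1, where it was the highest, all 4 were at their highest. The order did not hold throughout, since endfeet library 5, the endfeet library with the least choroid plexus signal, had a higher Col8a1 level than libraries 3, 4 and 6. Without endfeet library 1, the log2 fold changes were 6.80 for Col8a1, 5.97 for Col8a2, 6.55 for Col18a1 and 3.40 for Col9a3, and all 4 calls held. Endfeet library 1 was the highest endfeet library for 17 of the 40 tested chains, so a peak there was not particular to these 4. Removal of the choroid plexus is stated for the whole astrocyte brains only. These 4 chains were chosen after their values were seen, and the part of choroid plexus RNA in their levels was not tested.

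The transmembrane collagens, single-pass proteins whose ectodomain can be shed, were all 4 called higher (20.7% of all genes), with a median log2 fold change of 4.96. Col23a1 was at 2.95, 3.78 and 3.42 CPM against 126, 90.7, 67.7, 49.2, 50.5 and 21.5 CPM (log2 fold change 4.32, SE 0.61, adjusted p = 0.000143), without overlap and with the second smallest change of the calls in this class. Col25a1, a collagen of neurons found in amyloid plaques, was the second most abundant chain per length in whole astrocyte TRAP, at 7.68, 6.59 and 7.90 CPM, and was at 66.2, 14.7, 9.59, 76.5, 5.38 and 51.2 CPM in endfeet TRAP. Its endfeet libraries fell into 3 high and 3 low values, the lowest of them below all whole astrocyte libraries. Its call was at the threshold (log2 fold change 2.33, SE 0.85, adjusted p = 0.0482) and was lost in 11 of 18 alternatives. Col13a1 was at 0.162, 0.238 and 0.329 CPM against 0.375, 17.8, 5.91, 48.5, 13.4 and 0.914 CPM (log2 fold change 5.87, SE 1.53, adjusted p = 0.00994), highest in endfeet library 4, and its call was lost without whole astrocyte library 1 or 2. Col17a1, the hemidesmosomal collagen of skin, was at 0, 0.132 and 0.154 CPM against 0, 11.8, 9.13, 3.62, 4.87 and 0 CPM (log2 fold change 5.60, SE 1.90, adjusted p = 0.0362), a call that was lost in 8 of 16 alternatives, without any of the whole astrocyte libraries or without endfeet library 2, 3 or 5 among them.

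Of the 3 chains outside these classes, Col26a1 was at 0.0811, 0.159 and 0.1097 CPM against 14.6, 3.68, 6.24, 3.94, 4.94 and 0 CPM (log2 fold change 5.51, SE 1.43, adjusted p = 0.0093) and Col28a1 was at 0, 0.0529 and 0.1097 CPM against 13.3, 2.99, 3.22, 0.0805, 0.0737 and 3.198 CPM (log2 fold change 5.95, SE 1.91, adjusted p = 0.0284). Both calls were lost whichever whole astrocyte library was left out, with adjusted p up to 0.0604 and 0.117, and the groups of both overlapped. Col7a1, the anchoring fibril collagen of skin, had 1 count in all whole astrocyte libraries together and 22 in the endfeet libraries and was not tested.

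The make-up of the collagen message differed between the groups. On the scale of level per kb of transcript, Col9a3 took 24.9% to 31.9% of the summed collagen level in whole astrocyte libraries and 4.88% to 25.5% in endfeet libraries. Type IV chains took 7.74% to 10.9% in whole astrocyte libraries and 15.3% to 32.4% in endfeet libraries, multiplexins 0.141% to 1.65% and 2.77% to 7.39%, and short-chain collagens 1.05% to 4.58% and 5.41% to 21.5%. In these 3 classes the 6 endfeet shares were all above the 3 whole astrocyte shares. The FACIT share went the other way, from 39.4% to 45.9% down to 10.1% to 29.3%, and so did the transmembrane share, from 17.4% to 23.2% down to 5.0% to 17.3%, again without overlap. The fibrillar share (18.0% to 20.2% against 14.6% to 39.0%) and the type VI share (4.03% to 5.34% against 3.78% to 8.14%) overlapped. The FACIT share includes Col9a3, its largest part in every whole astrocyte library. It also includes Col16a1 and Col19a1, whose levels are limited as stated above. Col16a1 alone took 5.62% to 7.31% in whole astrocyte libraries and 0.0248% to 1.03% in endfeet libraries. Shares of a whole depend on each other, and they were not tested.

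**Figure D4:**
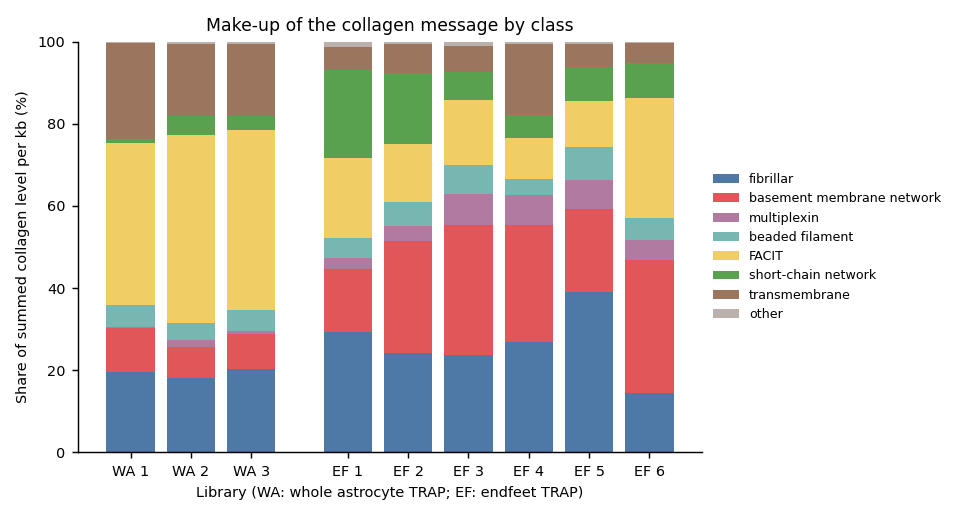
Share of each class in the summed collagen level per kb of transcript, in percent, for the 3 whole astrocyte (WA) and 6 endfeet (EF) TRAP libraries; each bar is 1 library and sums to 100%. The FACIT part is the largest in every whole astrocyte library (39.4% to 45.9%), and the basement membrane part is larger in every endfeet library (15.3% to 32.4%) than in any whole astrocyte library. The FACIT part includes Col16a1 and Col19a1, whose levels are limited as stated in the text.

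In level per kb, the order of the chains in whole astrocyte TRAP began with Col9a3 (2.83 CPM per kb), Col25a1 (1.103) and Col1a2 (0.874), means over 3 libraries. In endfeet TRAP it began with Col1a2 (55.5 CPM per kb), Col9a3 (40.95), Col4a1 (34.5), Col4a2 (32.95) and Col8a1 (32.7), means over 6 libraries. These 5 leading chains changed places from library to library: Col1a2 was first in endfeet libraries 1, 4 and 5, Col8a1 in library 2, Col4a2 in library 3 and Col9a3 in library 6. Endfeet libraries differed in summed collagen level too, from 1219.5 CPM in library 4 and 1235 CPM in library 6 to 3073 CPM in library 1. Of the 40 chains, 17 were highest in library 1, yet 8 were lowest there. Library 4 was lowest for 8 chains and library 6, the shallowest, for 16. In library 6, 8 chains were at 0, so depth bears on its count. A tie at 0 was counted once, for the first library.

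Chains that assemble into one protein were compared by their ratio in each library, which does not depend on the total collagen level. Type I collagen needs more Col1a1 than Col1a2 chains, but the messages per kb ran the other way in all 9 libraries: Col1a1 was at 0.321, 0.193 and 0.285 times Col1a2 in whole astrocyte TRAP and at 0.0724, 0.528, 0.762, 0.204, 0.284 and 0.196 times in endfeet TRAP. The mean log2 ratio was -1.94 ± 0.38 (SD, n = 3) and -1.93 ± 1.20 (SD, n = 6), and the groups did not differ beyond their spread (two-sided exact permutation test, p = 0.976). The ratio of Col4a1 to Col4a2 was 0.872, 1.07 and 0.864 in whole astrocyte TRAP and 2.86, 0.853, 0.814, 0.566, 0.987 and 1.16 in endfeet TRAP, near 1 in all libraries but endfeet library 1 and, on the low side, library 4. Its log2 difference was 0.16 (exact permutation p = 0.881). The differences were 0.29 for Col6a1 to Col6a2, over 5 endfeet libraries since Col6a2 was at 0 in 1 (exact p = 0.75), and 0.83 for Col5a1 to Col5a2 (exact p = 0.405). The Col6a1 to Col6a2 difference was 1.54 with 0.5 count added to each chain, which keeps all 6 endfeet libraries, and 1.01 with counts summed over transcripts. The Col5a1 to Col5a2 difference was 0.05 without whole astrocyte library 2 and 1.71 without library 3. Adjusted over the 4 ratios, all exact p were 0.976; the smallest p these permutations can give is 0.0119, and 0.0179 with 5 endfeet libraries.

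**Figure D5:**
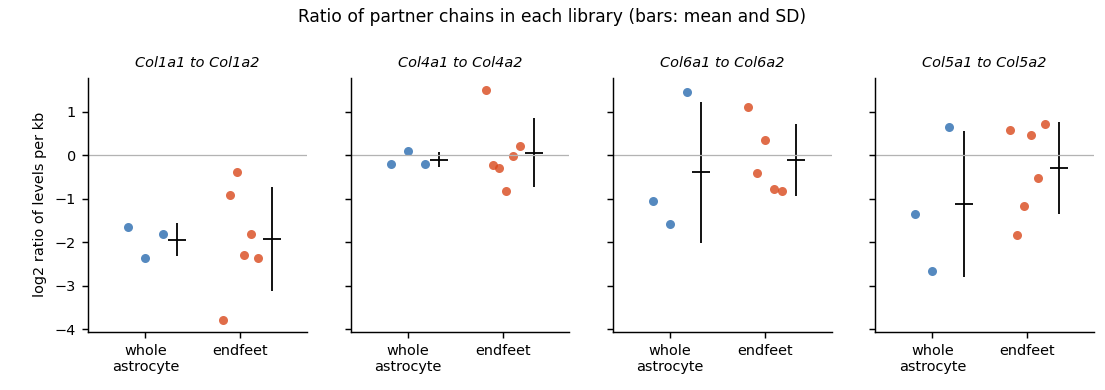
log2 ratio of the levels per kb of 4 pairs of chains that share a protein, in each library; points are libraries, and the horizontal mark and bar give the mean and SD of a group. Every Col1a1 to Col1a2 point lies below 0, most Col4a1 to Col4a2 points lie near 0, and the groups overlap in all 4 panels.

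Genes of collagen biosynthesis were also mostly higher in endfeet TRAP. Of 37 genes for collagen biosynthesis, 36 were tested, and 27 were higher and 0 lower, against 20.7% and 13.9% of all genes tested, with a median log2 fold change of 2.74. Without whole astrocyte library 1, 2 or 3 the number higher was 17, 16 and 15 (13.2%, 12.6% and 13.1% of all genes), and in series B alone 17 of 33 (19.5%). In hydroxylation and glycosylation, 12 of 15 were higher. Crtap, a partner of prolyl 3-hydroxylase, was at 0.703, 0.847 and 1.08 CPM against 7.81 to 33.6 CPM, median 24.2 CPM (log2 fold change 4.74, SE 0.74, adjusted p = 0.00031). P3h2, a prolyl 3-hydroxylase of type IV collagen, was at 2.54, 2.14 and 1.47 CPM against 10.5 to 79.6 CPM, median 32.98 CPM (log2 fold change 4.21, SE 0.72, adjusted p = 0.000626). P4hb, a subunit of the prolyl 4-hydroxylase that stabilises the triple helix, was outside the rule for named genes and is given for its role (log2 fold change 2.87, adjusted p = 3.88e-05).

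In folding and export, 4 of 7 were higher (20.7% of all genes). Serpinh1, the collagen chaperone HSP47, was at 7.97, 6.46 and 8.01 CPM in whole astrocyte TRAP and 94.2, 91.6, 111, 123, 96.6 and 93.2 CPM in endfeet TRAP (log2 fold change 3.76, SE 0.35, adjusted p = 4.74e-06). Its endfeet values lay closer together than those of any chain with values shown here. Mia3, the export factor TANGO1, was at 16.9, 11.7 and 14.3 CPM against 85.2 to 134 CPM, median 105 CPM (log2 fold change 2.94, SE 0.34, adjusted p = 3e-05), whereas the chaperones Fkbp10 and Fkbp14 had log2 fold changes of 0.50 and 0.06 with adjusted p of 0.703 and 0.951.

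In propeptide cleavage, 5 of 7 tested genes were higher (20.7% of all genes). Pcolce, an enhancer of the C-proteinase, was at 1.43, 4.23 and 3.95 CPM against 11.9 to 119 CPM, median 74.8 CPM (log2 fold change 4.42, SE 0.73, adjusted p = 0.000442). Adamts14, an N-proteinase, had 0 counts in all 3 whole astrocyte libraries and 17, 58, 111, 3, 36 and 0 in endfeet libraries 1 to 6, 225 together. The groups overlapped at 0. Its mean endfeet level was 44.3 times the mean whole astrocyte floor of 3 counts per library (edgeR adjusted p = 0.00561). That bound covers counting error only, not the spread between pools. In cross-linking, 6 of 7 were higher (20.7% of all genes). Lox, the lysyl oxidase, was at 0.4595, 0.794 and 0.219 CPM against 7.32 to 60.7 CPM, median 19.3 CPM (log2 fold change 5.90, SE 0.98, adjusted p = 0.00048), and Loxl2 had 1 count in the whole astrocyte libraries together and 177 in the endfeet libraries, a 371-fold ratio of CPM over the pooled libraries with a 95% exact counting interval of 65.7 to 14732 (edgeR adjusted p = 0.00818, lost without whole astrocyte library 1 or 3). The interval for Loxl2 also covers counting error only, and 110 of its 177 endfeet counts fell in library 2.

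Of 12 collagen receptors, 10 were tested and 9 were higher, against 20.7% of all genes tested, with a median log2 fold change of 4.79. Itga1, the integrin subunit that binds type IV and type I collagen, was at 3.89, 2.699 and 3.27 CPM against 246, 327, 263, 343, 295 and 349.9 CPM, with little spread in either group (log2 fold change 6.53, SE 0.34, adjusted p = 9.78e-08). Mrc2, an endocytic receptor for collagen, was at 0.243, 0.556 and 0.505 CPM against 24.6 to 67.7 CPM, median 35.5 CPM (log2 fold change 6.60, SE 0.71, adjusted p = 1.57e-05). The receptor tyrosine kinase Ddr2 had a log2 fold change of 4.88 and Ddr1 one of 2.63. Lair1, an inhibitory receptor of immune cells, was the exception, at 28.6, 28.7 and 29.5 CPM against 8.63, 9.31, 4.07, 23.5, 7.298 and 0.457 CPM: every endfeet library was below every whole astrocyte library, and the change did not pass the test (log2 fold change -1.69, adjusted p = 0.102). It was the 1 receptor lower at an unadjusted p under 0.05, limma voom called it lower, and so did edgeR without endfeet library 4.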

How the data were processed

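The authors ran the Eoulsan pipeline to obtain counts, aligning reads to mm10 with Bowtie, dropping multiply aligned reads and counting overlaps with Ensembl 75 transcripts by HTSeq-count; the submitters' processing notes also name bcl2fastq 1.8.4 and HTSeq 0.5.3. The deposited values are raw counts per transcript, neither normalised nor filtered. Whether counting used strand is not given in the sources used here.

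Of 75466 transcripts, 73164 were matched to GENCODE M21 (same build) and 2302 were left out. For every gene, 1 transcript stood for the gene, that of the largest CPM total over the 9 libraries. The 9 libraries were compared with edgeR 4.0.16 in R 4.3.3 (TMM, filterByExpr, glmQLFit, glmQLFTest, Benjamini-Hochberg, threshold 0.05), and SE is the absolute log2 fold change over the square root of F. The methods of the study used DESeq2, here an alternative (1.42.0), as was limma voom (3.58.1). Ratios of chains were tested by exact permutation of libraries in scipy 1.17.1. The fit was tested on simulated data of equal spread in both groups. The common dispersion of the libraries themselves was 0.0142 for whole astrocyte TRAP but 0.725 for endfeet TRAP, so the simulation does not cover such unequal spread. The edgeR fit of the data also took 1 dispersion per gene for both groups.

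The members, lists and tests were chosen with earlier results of these data known. Values per library, or the range and median of the endfeet libraries, were given for chains with a mean of at least 1 CPM, at most 6 of a class, for both chains of each ratio and for Col6a5 and Col12a1. Of the biosynthesis and receptor lists, the 2 with the largest change among the called genes of each role were named. P4hb, Fkbp10, Fkbp14, Ddr1, Ddr2, Lair1, Dcn, Lum, Ttr and the remaining chains without such a mean were named outside this rule. No protein sequences were used here.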

Additional observations from a re-analysis of the deposited data

Results flagged for a closer look

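Among the 33 chains with values by library or range and the 4 ratios, each set of endfeet values was examined for a single library far from the others (Dixon's criterion at the 95% level). If values follow a normal distribution, chance alone marks about 1 set in 20. Chains were examined in CPM and ratios in log2. CPM values with a long upper tail can be marked more often, so chains and ratios cannot be compared in this. It marked 6 chains, each for its highest library, and no ratio.

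Endfeet library 1 was the highest for 4 of them. Col1a2 was at 766 CPM there and at 320.3 CPM in the next library. Col4a3 was at 58.0 CPM and next at 19.0 CPM. Col19a1, measured by a non-coding transcript, was at 62.5 CPM and next at 2.17 CPM; its coding transcripts were at 0 in all endfeet libraries. Col28a1 was at 13.3 CPM and next at 3.22 CPM. The same library had the highest summed choroid plexus markers (87751 CPM), whose part in these values was not tested. Of the other chains, Col13a1 was at 48.5 CPM in endfeet library 4 and next at 17.8 CPM, and Col6a3 was at 55.4 CPM in endfeet library 5 and next at 22.2 CPM.

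Without the library concerned, the log2 fold changes were 5.44 for Col1a2, 3.84 for Col4a3, 4.90 for Col28a1, 4.82 for Col13a1 and 4.36 for Col6a3, with all 5 calls kept; Col19a1 then had too few counts to be tested.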

How the results depend on the processing

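Of the 30 chains called higher, 23 kept their call in every alternative that gave them a value, and the other 7 (Col6a6, Col11a1, Col13a1, Col17a1, Col25a1, Col26a1 and Col28a1) lost it in at least 1; of the 10 without a call, 5 passed in at least 1. With 1 library left out, 23 to 31 chains were higher and 0 lower, against 12.6% to 23.6% and 7.89% to 18.4% of all genes. With at least 10 counts in every library only 13 chains were tested, all 13 higher (27.7% of all genes). Their median log2 fold change was 4.40, and 12 of them were among the 30. Without a filter, 1 chain (Col6a4) was lower (12.4% of all genes). Limma voom gave a median of 4.94. Higher genes of the biosynthesis list numbered 17 in series B alone (19.5% of all genes) and 15 to 29 with 1 library left out (12.6% to 23.6%). In the receptor list, 1 gene (Lair1) was lower by limma voom (31.1% of all genes) and without endfeet library 4 (15.6%), so the range was 0 to 1.

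The log2 ratio differences, none of which passed the test, changed sign in series B for Col1a1 to Col1a2 (-0.21), Col4a1 to Col4a2 (-0.10) and Col6a1 to Col6a2 (-0.40). With 1 library left out they ranged from -0.29 to 0.39, from -0.13 to 0.34 and from -0.30 to 1.21, and that of Col5a1 to Col5a2 from 0.05 to 1.71. Col16a1, not called, had a log2 fold change of -0.42 with the replicate block. The causes were not tested.

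Libraries of equal number share only a number (correlations of their deviations -0.036, 0.017 and 0.038). With the replicate block, 29 chains were higher (17.3% of all genes), 0 were lower (13.6%) and the median was 5.86. Col25a1 lost its call there. The floor of endfeet library 6 (1.37 CPM) limits what can be said of low chains.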
